A study of Homo sapiens with 3 samples.

Results

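TXNIP and its relatives, the ARRDC genes, encode the alpha-arrestins, and their RNA was measured in BTSH cells on 3 arrays. The family was chosen with earlier results of these data known, and its members were then taken by name. They are every feature of the array whose gene symbol is TXNIP or ARRDC with a number. This gave 7 features of 6 genes, with 2 features for TXNIP and 1 each for ARRDC1, ARRDC2, ARRDC3, ARRDC4 and ARRDC5, out of 16098 named features of 14884 genes. BTSH is a clone that was picked from the HER2+ breast cancer line BT474 for its high sensitivity to trastuzumab, an antibody against HER2. All 3 arrays (HuGene 2.0 ST) hold RNA of untreated BTSH cells grown in DMEM with serum, and arrays of the parent line or of resistant cells are not analysed here. The arrays are described as biological replicates. The cells are 1 clone of 1 cell line, and the values below describe their levels and the spread between arrays, without a control and without any test between groups.

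Alpha-arrestins are adaptor proteins with the arrestin fold of the better known beta-arrestins, which switch off receptors at the cell surface. Most members carry short motifs in their tail that bind ubiquitin ligases of the NEDD4 type, and in this way they mark membrane proteins for uptake and breakdown. TXNIP is known for 2 further roles, since it binds and inhibits the antioxidant protein thioredoxin and it lowers glucose uptake by removing glucose transporters from the surface. Its gene and that of ARRDC4 are switched on when glucose is abundant by the transcription factors MondoA and ChREBP, which bind DNA together with their partner Mlx. ARRDC3 has been studied in breast cancer, where it promotes the breakdown of the beta-2 adrenergic receptor and of integrin beta 4, and ARRDC1 drives the budding of small vesicles from the plasma membrane with the help of ESCRT proteins.

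The promoters are shown because the hexamers through which Mlx and its partners bind DNA can be read in them. RefSeq promoters (GRCh38.p14) matched 5 of the 6 genes with 8 start sites, each window holding 250 bases before and 50 bases from the start site on, and the ARRDC5 promoter was not used here. The most upstream start site is printed for each of the 4 genes whose signal was above background. Sequences read 5′ to 3′ on the strand of the gene, and capitals mark matches on either strand to CACGNG, a hexamer of the E-box type, or to CCAAT, the box bound by the factor NF-Y. The windows are chr1:145996530-145996829 on the minus strand for TXNIP, chr15:97960453-97960752 on the plus strand for ARRDC4, chr5:91383268-91383567 on the minus strand for ARRDC3 and chr9:137605436-137605735 on the plus strand for ARRDC1.
TXNIP: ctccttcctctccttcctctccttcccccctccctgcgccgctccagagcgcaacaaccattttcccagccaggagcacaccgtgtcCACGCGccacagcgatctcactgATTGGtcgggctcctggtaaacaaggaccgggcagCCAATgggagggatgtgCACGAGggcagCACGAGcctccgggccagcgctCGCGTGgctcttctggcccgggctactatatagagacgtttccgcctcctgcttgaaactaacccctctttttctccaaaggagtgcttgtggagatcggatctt
ARRDC4: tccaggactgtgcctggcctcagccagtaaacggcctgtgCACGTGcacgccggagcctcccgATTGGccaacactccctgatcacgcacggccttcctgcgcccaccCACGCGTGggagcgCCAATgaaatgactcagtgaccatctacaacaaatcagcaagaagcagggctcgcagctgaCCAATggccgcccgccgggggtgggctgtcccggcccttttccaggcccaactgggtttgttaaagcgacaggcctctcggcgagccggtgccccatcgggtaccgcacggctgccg
ARRDC3: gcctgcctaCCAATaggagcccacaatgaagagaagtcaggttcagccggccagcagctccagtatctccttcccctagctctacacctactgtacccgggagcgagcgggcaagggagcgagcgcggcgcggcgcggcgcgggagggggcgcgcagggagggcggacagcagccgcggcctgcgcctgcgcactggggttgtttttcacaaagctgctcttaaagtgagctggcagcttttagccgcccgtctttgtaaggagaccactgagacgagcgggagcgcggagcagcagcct
ARRDC1: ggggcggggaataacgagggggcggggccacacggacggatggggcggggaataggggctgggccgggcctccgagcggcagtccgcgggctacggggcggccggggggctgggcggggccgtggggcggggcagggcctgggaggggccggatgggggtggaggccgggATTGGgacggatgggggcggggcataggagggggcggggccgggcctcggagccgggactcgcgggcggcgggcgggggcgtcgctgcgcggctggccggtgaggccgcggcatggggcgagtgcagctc

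The upstream TXNIP promoter held 4 CACGNG matches, and 2 of them, with 5 bases between them, formed the spacing of a carbohydrate response element at positions -88 to -72 from the start site. With both hexamers in the same orientation, this spaced pair was found on either strand in 20 of 35116 RefSeq promoters of the same length (0.057%). Pairs of opposite orientation were not counted, so this is not the share of all such elements. At least 1 CACGNG match was held by 30.5% of these promoters. The second TXNIP start site had 0 matches to CACGNG and 0 to CCAAT. The ARRDC4 promoter held 3 CACGNG matches but no pair with this spacing, and 2 of the 3 overlap each other as the palindrome at -142 to -135. The third is CACGTG, the canonical E-box, which 7.26% of the promoters hold. The upstream ARRDC3 promoter and the ARRDC1 promoter had no CACGNG match, the second start site of ARRDC3 had 1, and ARRDC2 had 3 at its upstream start site. CCAAT was found in 34.6% of all promoters, with 2 matches in the TXNIP window, 3 in that of ARRDC4 and 1 each in those of ARRDC3 and ARRDC1. A match is a description of the letters and not evidence that a factor is bound there, and the arrays did not measure binding.

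**Figure D1:**
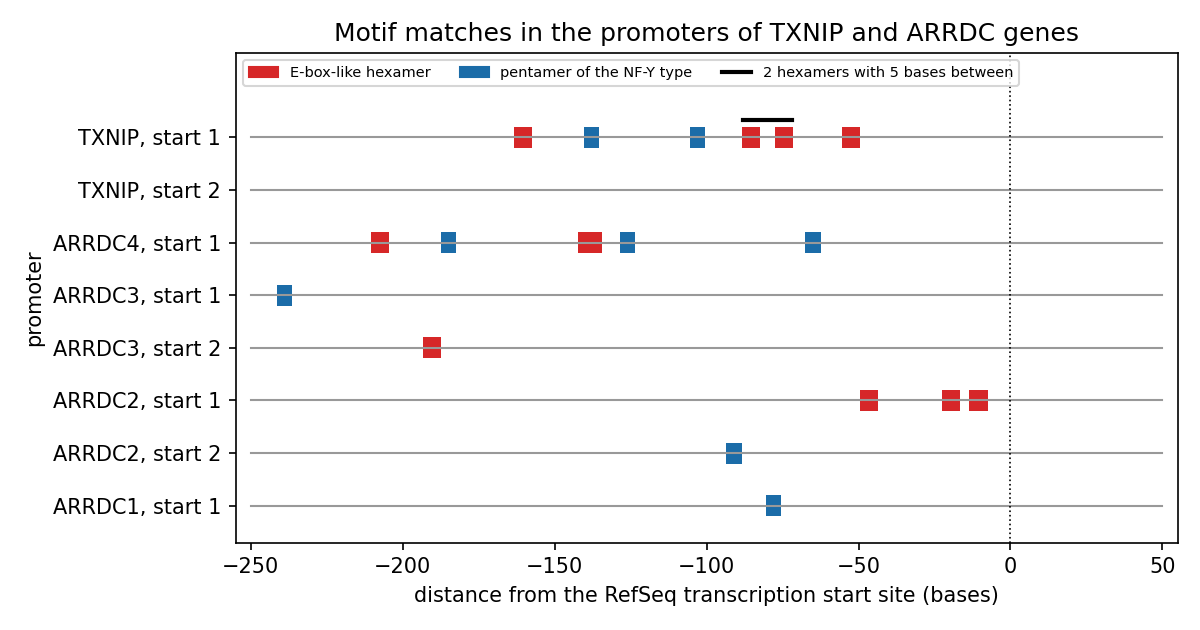
Motif matches in the RefSeq promoters of TXNIP and ARRDC genes, by distance from the transcription start site in bases (the dotted line is the start site). Red blocks are the E-box-like hexamer, blue blocks the pentamer bound by NF-Y, and the black bar marks the pair of hexamers with 5 bases between them, which is seen in the TXNIP window at -88 to -72 and in no other window drawn.

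The authors normalized the arrays by RMA, and values are log2 signals, so that a difference of 1 is a 2-fold difference in signal. The 3 arrays had medians of 4.40, 4.42 and 4.43, any pair correlated over the 53617 features at r of 0.991 to 0.992 (features, not replicates, are the points), and no pair of arrays shared more than 83 identical values. Background was taken from 106 features of vomeronasal receptors, late cornified envelope proteins and keratin-associated proteins, genes that breast epithelium is not known to use. A feature counted as above it if its signal exceeded their 95th percentile in every array, which was 6.70, 7.08 and 6.83 in replicates 1, 2 and 3. Signal also depends on which probes make up a feature, and no gene was ordered against another by level. Of the markers of luminal breast epithelium, 8 of 9 were above background in all 3 arrays, KRT8 being the exception. Of 7 named markers of fibroblasts, leukocytes, endothelium and basal cells, 0 were, although CD68 passed in 2 arrays and VIM in 1, and with background at the 90th percentile 2 passed in all arrays.

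Above background in all 3 arrays were 4 of the 7 features, where the share of all named features was 29.2%, and 4 of the 6 genes, where the share of all named genes was 30.4%. TXNIP, ARRDC1, ARRDC3 and ARRDC4 passed, and ARRDC2 and ARRDC5 were below background in every array. With so few members this count is a description, and nothing particular to the family follows from it. The same 4 genes also passed with background set at the 99th percentile.

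TXNIP was measured by 2 features that the annotation assigns to the same transcript. Feature 16669796 had signals of 10.56, 10.46 and 10.14 in replicates 1, 2 and 3 (10.39 ± 0.22, SD, n = 3). Each array lay at least 3.31 above its background. The signal was highest in replicate 1 and lowest in replicate 3, and these 2 arrays were 1.34-fold apart. Feature 17117443 had signals of 5.34, 4.57 and 5.28 (5.06 ± 0.42) and was below background in each array, with differences from it of -1.37, -2.50 and -1.56. Its differences between arrays are not read further. Such a split, with 1 feature above background and another below it, is common on these arrays. Of the 250 genes with several features of which at least 1 was above background in all arrays, 166 (66.4%) had another feature that passed in 0 arrays. The level of TXNIP below refers to feature 16669796.

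ARRDC3, the adaptor that sends the beta-2 adrenergic receptor and integrin beta 4 to breakdown, had signals of 8.83, 8.96 and 8.32 in replicates 1, 2 and 3 (8.70 ± 0.34, SD, n = 3). Replicate 3 stood below the other two, and the highest and lowest arrays were 1.56-fold apart, the widest spread among the 4 genes above background. ARRDC3-AS1, a long noncoding RNA gene that overlaps the ARRDC3 locus and is no member of the family, had 3.80, 3.69 and 3.80 and was above background in 0 arrays.

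ARRDC1, which recruits the ESCRT protein TSG101 to the plasma membrane, had signals of 8.44, 8.71 and 8.91 (8.69 ± 0.24). It was lowest in replicate 1 and highest in replicate 3, the opposite of TXNIP. ARRDC4, the relative of TXNIP that shares its response to glucose, had signals of 8.48, 8.42 and 8.49 (8.46 ± 0.04). Its highest and lowest arrays were only 1.05-fold apart.

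ARRDC2, a less studied member, had signals of 6.17, 5.84 and 6.32 (6.11 ± 0.25), with differences from background of -0.53, -1.24 and -0.51. ARRDC5, studied mostly in the testis of mice, had signals of 4.04, 4.02 and 4.39 (4.15 ± 0.21), with differences from background of -2.66, -3.06 and -2.44. For both genes the level is bounded only from above, and their differences between arrays are not read further. With background at the 90th percentile 5 features and 5 genes passed, the added one being ARRDC2.

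**Figure D2:**
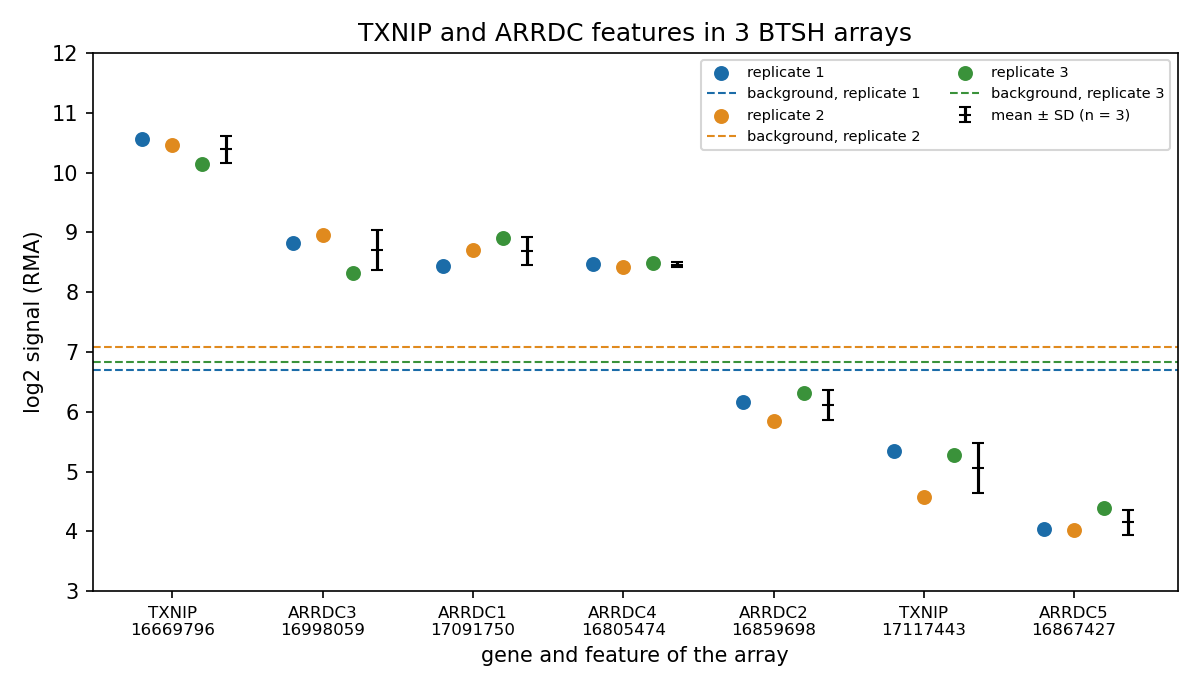
Log2 signals (RMA) of the 7 TXNIP and ARRDC features in the 3 BTSH arrays, with the mean ± SD (n = 3) beside each and the background of each array as a dashed line of the same colour. Features of TXNIP (16669796), ARRDC3, ARRDC1 and ARRDC4 lie above all 3 lines, with means from 8.46 to 10.39, and those of ARRDC2, TXNIP (17117443) and ARRDC5 lie below them.

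The 4 genes above background differed in how much they varied between the replicates. Their median SD was 0.23 on the log2 scale, against 0.11 for all 4528 genes above background. For ARRDC3 an SD as large or larger was found in 1.39% of these genes, for ARRDC1 in 7.22%, for TXNIP in 9.92% and for ARRDC4 in 90.6%. ARRDC4 was thus among the steadier genes of these cultures and the other three among the more variable ones.

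**Figure D3:**
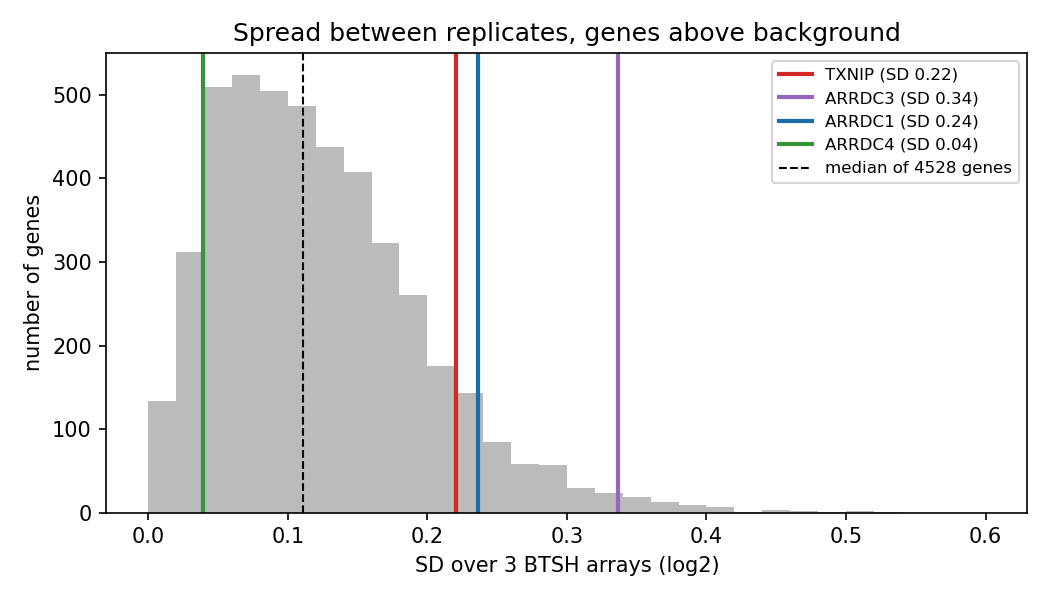
Histogram of the SD over the 3 BTSH arrays (log2) for the 4528 genes above background, with the number of genes on the vertical axis. Coloured lines mark TXNIP (0.22), ARRDC3 (0.34), ARRDC1 (0.24) and ARRDC4 (0.04), and the dashed line marks the median of 0.11.

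The replicate in which each gene was high or low also differed within the family. In replicates 1, 2 and 3, the log2 signal of TXNIP deviated from its own mean by 0.18, 0.07 and -0.25. Being highest in replicate 1 and lowest in replicate 3 was the pattern of 33.4% of all genes above background, so that its direction alone does not set TXNIP apart. ARRDC3 deviated by 0.12, 0.26 and -0.38, and its pattern, highest in replicate 2 and lowest in replicate 3, was that of 13.8% of the genes. ARRDC1 deviated by -0.25, 0.03 and 0.22, highest in replicate 3 and lowest in replicate 1 as 16.2% of the genes were. ARRDC4 deviated by 0.02, -0.04 and 0.03, and its highest array was replicate 3, or replicate 1 with each array centred on its median. TXNIP, ARRDC1 and ARRDC3 kept their highest and lowest arrays with quantile normalization and with median centring.

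For TXNIP and ARRDC3 the spread rested mostly on replicate 3. Without replicate 3 the highest and lowest arrays were 0.10 apart for TXNIP, against 0.42 over all 3, and 0.13 apart for ARRDC3, against 0.64. For ARRDC1 the difference was 0.47 over all arrays, 0.20 without replicate 1, 0.47 without replicate 2 and 0.27 without replicate 3. Its spread thus did not rest on 1 array.

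**Figure D4:**
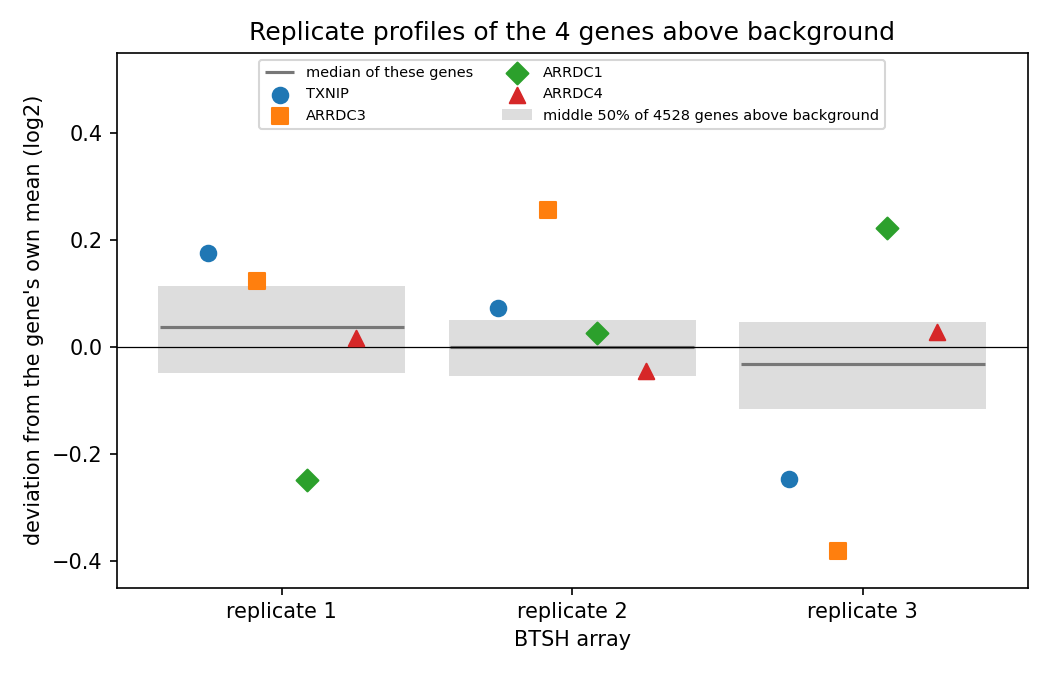
Deviation of TXNIP, ARRDC3, ARRDC1 and ARRDC4 from their own means (log2) in each BTSH array, with the middle 50% of 4528 genes above background as a grey bar and their median as a line. In replicate 3, TXNIP (-0.25) and ARRDC3 (-0.38) lie below the bar and ARRDC1 (0.22) above it. In replicate 1, ARRDC1 (-0.25) lies below the bar, and TXNIP (0.18) and ARRDC3 (0.12) lie above it. In replicate 2, ARRDC3 (0.26) and TXNIP (0.07) lie above the bar. ARRDC4 lies within the bar in each array.

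Other gene groups varied over the same replicates. The 8 hypoxia and glycolysis genes above background all peaked in replicate 1 and had their lowest signal in replicate 3, as TXNIP did. Their median deviations were 0.34, 0.01 and -0.29, and 33.4% of all genes above background had this order. Of the 6 immediate early genes above background, 5 were highest in replicate 2, as ARRDC3 and 24.4% of all genes above background were, with median deviations of -0.08, 0.20 and -0.07. These groups were known from earlier results to differ between the replicates, and their part in the spread of TXNIP and ARRDC3 was not tested.

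The genes whose profile over the 3 arrays lay closest to that of TXNIP, by the root mean square difference of deviations on the log2 scale, were EDARADD (0.0014), C17orf58 (0.0038), GALNT7, an enzyme that starts mucin-type glycans (0.0047), the chromatin remodelling subunit RSF1 (0.0060) and EMSY, a partner of BRCA2 (0.0066). For EDARADD the signals were 8.53, 8.43 and 8.11, so the steps between arrays were nearly those of TXNIP. The closest to ARRDC1 were PLXNA1, MED16 and COX6B1, to ARRDC3 the pseudogenes OCLNP1 and CEP170P1 and the gene PXK, and to ARRDC4 the stress sensor ATF6, KIF1C and PACSIN2. Among the genes above background, ARRDC3 ranked 1540th in likeness to TXNIP (0.13), ARRDC4 2899th (0.20) and ARRDC1 4442nd (0.37). Seen from ARRDC3, whose profile has few close matches, TXNIP ranked 170th. A profile of 3 arrays is matched closely by many genes. With quantile normalization 0 of the 5 genes closest to TXNIP were the same, with the mean of each gene's features 0, and without 1 replicate 0 or 1.

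The network of factors that read glucose was above background in part. Of 11 named genes of the Max and Mlx network, 7 passed in all arrays, against 30.4% of all named genes, with a median SD of 0.13. Falling below the cutoff does not show that a gene is silent, and MAX itself (6.35, 6.33 and 6.12) fell below it. MLXIP, which encodes MondoA, had signals of 7.28, 7.60 and 7.26 in replicates 1, 2 and 3, close to background and highest in replicate 2. MLX, the common partner, had 9.11, 9.09 and 9.07, and varied by less than the median gene. MLXIPL, which encodes ChREBP, had 4.87, 4.90 and 4.87, below background throughout. MXD4 and MNT, repressors of the network, were above background, whereas MYC (6.65, 7.04 and 6.29) stayed under it in each array, least so in replicates 1 and 2. With background at the 99th percentile only 2 of the 7 remained above it. None of the 14 SLC2 hexose transporters has a named feature here, so the transporters that TXNIP removes from the surface are not described.

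The thioredoxin system, the target of TXNIP, was above background in 10 of 17 named genes, against 30.4% of all named genes, with a median SD of 0.08. TXN, thioredoxin itself, had signals of 10.93, 10.89 and 11.05, and its mitochondrial form TXN2 had 8.36, 8.44 and 8.43. TXNRD1, the reductase that recharges cytosolic thioredoxin, had 7.51, 7.34 and 7.38, near the background. The mitochondrial reductase TXNRD2 and its relative TXNRD3 were below it in all arrays. Among the peroxiredoxins, which draw on thioredoxin to remove peroxides, PRDX1 (11.71, 11.86 and 11.90), PRDX2, PRDX3 and PRDX6 were above background and PRDX4 was not. In replicate 3, 4 of the 10 genes, TXN among them, were highest and 3 were lowest. Of all genes above background, 27.4% were highest and 47.3% lowest in that array. A link of these genes to the level of TXNIP was not tested.

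All 7 named NEDD4-type ligases and adaptors of ligases were above background in all 3 arrays, with a median SD of 0.11. Among all named genes 30.4% passed. Raising background to the 99th percentile left 6 of the 7 above it. ITCH, the ligase that marks TXNIP itself for breakdown, had signals of 11.54, 11.50 and 11.43 in replicates 1, 2 and 3. WWP1 had 9.31, 9.16 and 9.07, WWP2 8.71, 8.79 and 8.90, and SMURF1 and SMURF2 passed too. ITCH, WWP1, SMURF2 and NDFIP1 peaked in replicate 1 and had their lowest signal in replicate 3, as TXNIP did, and WWP2 ran the other way round. The order of these 4 genes was that of 33.4% of all genes above background, and ITCH (SD 0.05) varied by less than the median gene. The remaining members were NDFIP1 and NDFIP2, membrane adaptors that activate these ligases. NEDD4 and NEDD4L have no named feature here.

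The ESCRT genes, through which ARRDC1 buds vesicles, were above background in 13 of 15 named cases, against 30.4% of all named genes. TSG101, the ESCRT-I subunit that ARRDC1 binds, had signals of 8.79, 8.87 and 8.84, a narrower spread than that of ARRDC1. VPS4A, one of the enzymes that take ESCRT filaments apart, had 7.78, 7.92 and 8.11, and VPS4B had 9.90, 9.71 and 9.68, so the 2 copies were lowest in different arrays. VPS37D was below background and VPS37A passed in 2 arrays.

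Of 5 named genes of other arrestins and arrestin-fold proteins, 2 were above background, against 30.4% of all named genes, and with background at the 99th percentile 1 was. They were VPS26A, a subunit of the retromer (9.59, 9.59 and 9.58), and RGP1 (7.29, 7.23 and 7.14), whereas VPS26B, VPS26C and the visual arrestin SAG were below it. The beta-arrestins ARRB1 and ARRB2 have no named feature here. Of the proteins described as partners or cargo, 4 have a named feature. Of these, 2 were above background, against 30.4% of all named genes. This count was 4 at the 90th and 1 at the 99th percentile. DDIT4, a stress-induced inhibitor of mTORC1 that binds TXNIP, had 9.54, 9.24 and 8.94, and MAP3K5, the kinase ASK1 that thioredoxin holds inactive, had 7.77, 7.49 and 7.30. Both peaked in replicate 1 and had their lowest signal in replicate 3, as TXNIP and the hypoxia genes did. Of all genes above background, 33.4% had this order. COPS5 was below background and NOTCH1 passed in 1 array.

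**Figure D5:**
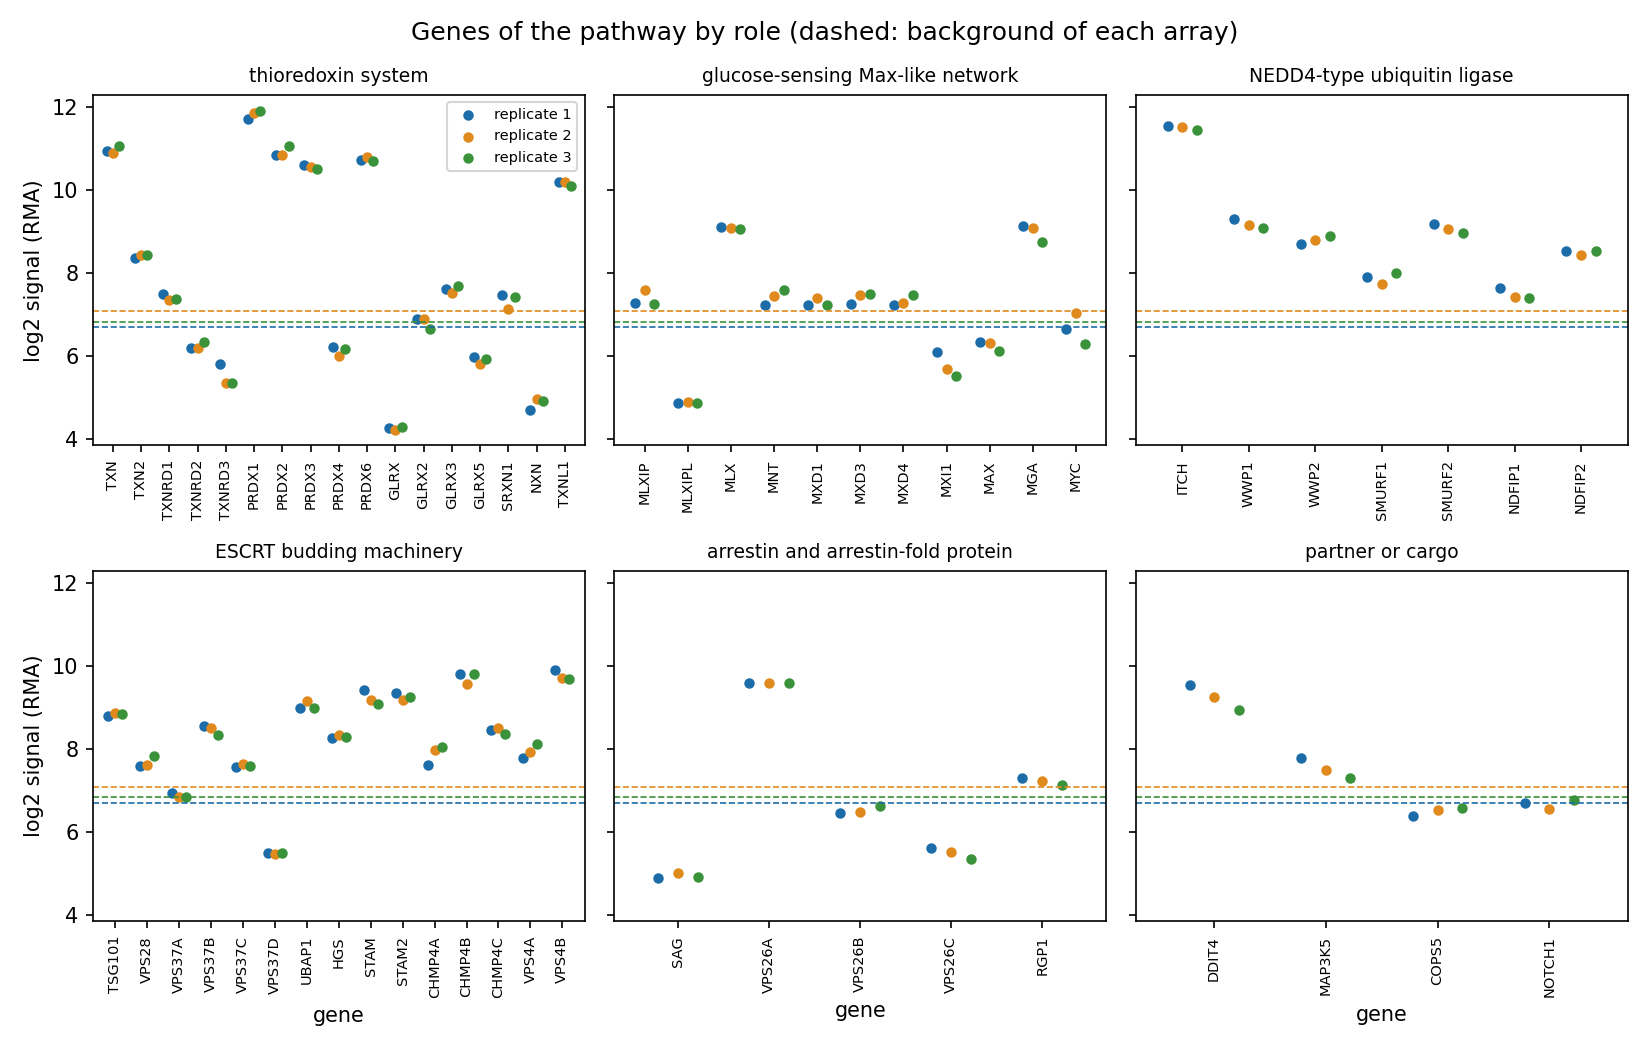
Log2 signals (RMA) of the named genes of 6 groups by role in the 3 BTSH arrays, 1 point for each array, with the background of each array dashed in its colour. All 7 NEDD4-type ligases and adaptors lie above the lines, against 10 of 17 thioredoxin genes, 7 of 11 genes of the Max and Mlx network, 13 of 15 ESCRT genes, 2 of 5 arrestin-fold genes and 2 of 4 partners or cargo. The share over all named genes was 30.4%.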

How the data were processed

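RNA of untreated BTSH cells was measured on 3 HuGene 2.0 ST arrays. The authors summarized the arrays by RMA with Expression Console 1.4 and deposited log2 signals; the program Transcriptome Analysis Console 4.0 is named as well in the processing notes of the submitters. For the array features, no genome build is given in the sources used here. Of 53617 features, 16098 (30.0%) have a gene name here, and the gene's feature with the highest mean stood for it. Levels are means ± SD. The number of arrays, 3, limits the precision, and no test between groups was possible. Likeness of 2 genes is the root mean square difference of their deviations from their own means over the 3 arrays. On simulated data this ranking was tried only on planted profiles with little noise, and the background rule only on levels far from background. These trials do not bear on genes near background or on how stable the ranking is in the real arrays. Promoters were searched on both strands. All members, the 5 genes closest to TXNIP, the 3 closest to each ARRDC gene above background and examples of 12 gene lists by role are named. The members and lists were chosen with earlier results of these data known. Values were computed in Python 3.11.15 with pandas 2.3.3 and numpy 2.4.6 and drawn with matplotlib 3.10.9. As alternatives, each replicate was left out in turn, and the normalization, the background level and the choice of feature were varied.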

Additional observations from a re-analysis of the deposited data

How the results depend on the processing

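The 4 features and 4 genes of the family above background were also 4 with quantile normalization, with median centring and at the 99th percentile of background. They were 4 as well with the mean over arrays and without any 1 replicate, and 5 at the 90th percentile. Leaving out a replicate could not lower the count of features, since each array has its own cutoff. Over all 12 gene lists 68 genes were above background, and 52 to 90 under the alternatives. In the main setting 30.4% of all named genes were above background. The total shows how the count moved with the processing and is not a result about the lists. The 5 genes closest to TXNIP did not hold. With quantile normalization 0 of them were the same, averaging a gene's features 0, and without 1 replicate 0 to 1, whereas all 5 were the same with median centring and with all named features. The cause was not tested. The mean of features adds the lower TXNIP feature and also averages the features of other genes, and leaving out a replicate leaves 2 arrays. Over all results, 190 values counted as the same and 21 moved. Counts and spreads were called the same if their ratio to the main value was small, so that 5 against 4 counted as the same. Means were called the same if they shifted by less than their SD over the arrays. Leaving out a replicate cannot shift a mean that far, so part of the 190 could not have moved. No paired analysis was possible because all arrays belong to 1 group.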

Other observations

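Genes of nutrient shortage and low PI3K signalling were above background in 5 of 12 named cases, against 30.4% of all named genes. With background at the 90th percentile 9 of the 12 were above it. BCL6, a transcriptional repressor, had signals of 9.07, 8.91 and 8.53 in replicates 1, 2 and 3, highest and lowest in the same arrays as TXNIP. That order was shared by 33.4% of all genes above background. CCNG2, a cyclin induced by FOXO factors, had 8.03, 8.06 and 7.79, with replicate 3 lowest. The sestrins SESN1 (8.14, 8.24 and 8.39) and SESN2 (7.52, 7.51 and 7.90), which restrain mTORC1, were highest in replicate 3. So were 27.4% of all genes above background. FOXO4 was above background, and FOXO1 and FOXO3 were below it in all arrays.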
